A study of Drosophila melanogaster with 4 samples.

Results

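The glycolytic enzyme genes examined here are 10 Drosophila melanogaster genes of the path from fructose 6-phosphate to pyruvate: Pfk, Ald1, Tpi, Gpdh1, Gapdh1, Gapdh2, Pgk, Pglym78, Eno and Pyk. They were chosen by name as enzymes of the path, with earlier results of these data known, and were looked up in the annotation of an Affymetrix Drosophila GeneChip with 14009 probe sets. Of the 10 genes, 7 had a probe set of their own (Pfk, Ald1, Gpdh1, Gapdh1, Pgk, Pglym78 and Eno), and all 7 passed the filter on low values among 6201 genes compared. Tpi had only a probe set annotated jointly to Tpi and CG1607, and Gapdh2 and Pyk had no probe set named for them in the annotation used here.

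The RNA came from whole Canton S females in 4 groups. Females mated to wild-type (Canton S) males received both sperm and accessory gland proteins (Acps). Females mated to spermless males received Acps alone; these males, called sons of tudor, had Canton S fathers and bw sp tud1 mothers and kept intact accessory glands. Females mated to DTA-E males, from a transgenic stock in a Canton S background, received neither sperm nor the Acps of the main cells, which are 96% of the gland's secretory cells. Virgin females were the unmated state. All were aged 3 to 4 days at 25 °C under 12 h of light and 12 h of dark, and mated females were frozen 1 to 3 h after mating. For each group 50 flies were drawn from a pool, giving 2 RNA extractions and 4 chips, but the value table holds 1 column per group. There are no replicates to test with: a difference below is simply that of 1 column from another.

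Glycolysis splits glucose into pyruvate with a net gain of ATP. In insects the flight muscle uses sugar at a very high rate, and it depends on a side branch, the glycerol 3-phosphate shuttle, to reoxidise cytosolic NADH instead of making lactate. Whole-fly RNA mixes muscle with fat body, gut, ovary and nervous tissue, all of which also express these enzymes.

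Values are on a log scale, read as log2, and each column was centred on its median, so that 0 is the middle of the genes compared and a difference of 1 is 2-fold. Genes were counted past 1.5-fold, a difference of 0.58, and past a lower threshold, a difference of 0.322. The base of the logarithm is not stated in the sources used here. A value of 1 probe set cannot be set against that of another, so levels are compared between columns and not between genes.

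All 7 measured genes followed 1 order. They were lowest in females mated to wild-type males, next in females mated to DTA-E males, higher in virgin females and highest in females mated to spermless males. The full order was found in 5.16% of all genes compared. The wild-type column was the lowest of the 4 in 26.6% of all genes, the spermless column was the highest in 23.0%, and both held in 8.58%. The range over the 4 columns had a median of 0.45 in the 7 enzyme genes, against 0.12 in all 6201 genes. For Gpdh1 the order rested on differences of 0.003 and 0.03 and was lost in the columns as deposited and without the filter, where 6 of the 7 genes kept it. Steps of 3 other genes were also within the spread between probe sets of a gene described below. These were spermless-mated minus virgin in Eno (0.06) and DTA-E-mated minus virgin in Pfk (-0.07) and Pglym78 (-0.04).

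**Figure D1:**
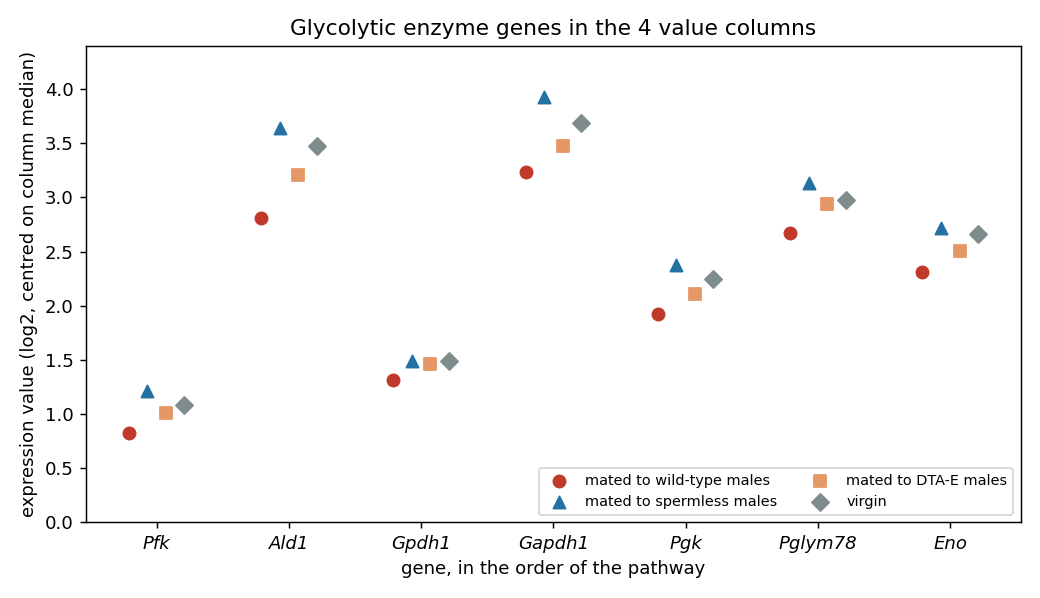
Expression value (log2, centred on the median of each column) of the 7 measured glycolytic enzyme genes in pathway order, with Gpdh1 of the side branch after Ald1, 1 symbol per group with no replicates. In each gene the wild-type-mated symbol is lowest and the spermless-mated symbol highest, from a range of 0.18 in Gpdh1 to 0.83 in Ald1.

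The first enzymes of the path showed the widest range in Ald1. Pfk (probe set 152424_at) encodes phosphofructokinase, the regulated entry step, and its values were 0.82 in females mated to wild-type males, 1.21 after spermless males, 1.01 after DTA-E males and 1.08 in virgin females. Ald1 (154814_at) encodes the aldolase that splits fructose 1,6-bisphosphate into triose phosphates, and its values were 2.81 after wild-type males, 3.64 after spermless males, 3.20 after DTA-E males and 3.47 in virgin females. Ald1 had the largest range of the 7 genes, 0.83, which ranked 65 from the widest of 6201 genes.

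Gpdh1 (153347_at) encodes the cytosolic glycerol 3-phosphate dehydrogenase, the enzyme of the shuttle branch. Its values were 1.31 after wild-type males, 1.49 after spermless males, 1.46 after DTA-E males and 1.49 in virgin females. It had the smallest range of the 7, 0.18, and stood apart from the others in that spermless-mated, DTA-E-mated and virgin females lay within 0.03 of each other.

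Gapdh1 (154244_at) encodes glyceraldehyde 3-phosphate dehydrogenase, the step at which NADH is made. It had 3.23 after wild-type males, 3.93 after spermless males, 3.47 after DTA-E males and 3.69 in virgin females, a range of 0.70 that ranked 96 from the widest. Gapdh1 and Gapdh2 are close paralogs, and whether this probe set also takes up Gapdh2 transcript was not tested.

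Pgk (143301_at) encodes phosphoglycerate kinase, the first step of the path that makes ATP. Pgk had 1.93 after wild-type males, 2.37 after spermless males, 2.11 after DTA-E males and 2.25 in virgin females. Pglym78 (152504_at), the phosphoglycerate mutase gene, had 2.67 after wild-type males, 3.13 after spermless males, 2.94 after DTA-E males and 2.98 in virgin females. Eno (143150_at), the enolase gene, had 2.31 after wild-type males, 2.72 after spermless males, 2.51 after DTA-E males and 2.66 in virgin females. These 3 genes of the lower path had ranges between 0.41 and 0.46, about the middle of the 7 genes.

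The probe set shared by Tpi, which encodes triose phosphate isomerase, and CG1607 had 2.43 after wild-type males, 2.63 after spermless males, 2.56 after DTA-E males and 2.60 in virgin females. It showed the same order with a range of 0.20, and its signal cannot be assigned to either gene.

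The array also carries control probe sets named GAPDH, against the 5′ part, the middle and the 3′ part of the transcript; the names do not say which of the paralogs they match. The middle control had 3.12 after wild-type males, 3.28 after spermless males, 3.20 after DTA-E males and 3.36 in virgin females. Its range of values was smaller than that of Gapdh1, and its highest value was in virgin females, unlike Gapdh1. In wild-type-mated against spermless-mated females the 5′, middle and 3′ controls differed by -0.01, -0.17 and -0.11, whereas Gapdh1 differed by -0.70.

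The largest differences were those of wild-type-mated from spermless-mated females, the pair that differs in the receipt of sperm. In every pair of mated groups the males also came from different stocks or crosses, which cannot be told apart from what the females received. All 7 genes were lower in the wild-type-mated column, where 45.3% of all genes were lower, and their median was -0.45, against 0.01 over all genes. Ald1 differed by -0.83 and Gapdh1 by -0.70, which makes them 1.77-fold and 1.62-fold lower on the log2 reading. These 2 were the genes past 1.5-fold lower, against 1.10% of all genes, and they ranked 34 and 46 from the lowest of 6201. Pglym78 differed by -0.46, Pgk by -0.45, Eno by -0.41 and Pfk by -0.39, so that 6 of 7 were past 0.322 lower, against 3.82% of all genes. Gpdh1 differed by -0.18. After quantile normalization the difference of Gapdh1 was -0.58, just short of 1.5-fold, and that of Ald1 was -0.63.

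**Figure D2:**
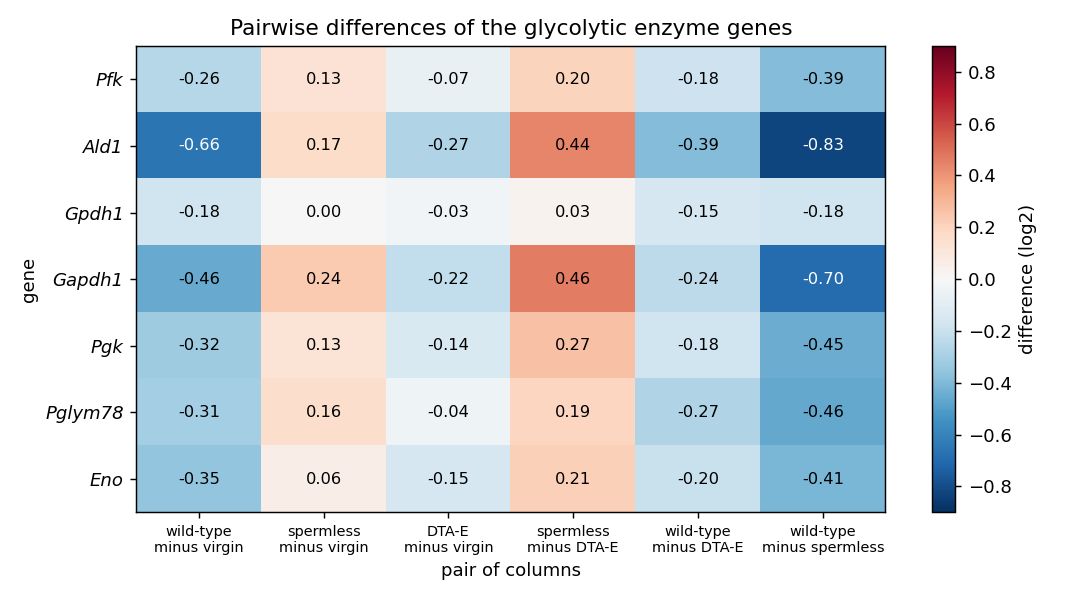
Difference in log2 units for each of the 7 measured genes (rows, in pathway order with Gpdh1 of the side branch after Ald1) in each of the 6 pairs of columns, blue for lower and red for higher in the group named first. The 3 pairs with wild-type-mated females named first are negative in all 7 genes, and the deepest colours are those of Ald1 and Gapdh1 in wild-type-mated minus spermless-mated females.

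Wild-type-mated females were also set against virgin females, for the whole difference that goes with a normal mating. All 7 genes were again lower, where 46.4% of all genes were lower, with a median of -0.32. Ald1, at -0.66 or 1.58-fold lower in wild-type-mated females, was the 1 gene past 1.5-fold, against 1.0% of all genes, and this was -0.50 after quantile normalization. Gapdh1 differed by -0.46 and Eno by -0.35, and with Ald1 they made 3 of 7 past 0.322 lower, against 2.76% of all genes. Pgk, at -0.320, was just short of that threshold, and Pglym78 (-0.31), Pfk (-0.26) and Gpdh1 (-0.18) were closer to the virgin level.

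Wild-type-mated and DTA-E-mated females differ in both sperm and main-cell Acps, and this pair uses neither the spermless nor the virgin column. The 7 genes were lower in wild-type-mated females, where 51.7% of all genes were lower, with a median of -0.20. None was past 1.5-fold, against 0.387% of all genes. Ald1, at -0.39, was the only 1 past 0.322 lower, against 1.13% of all genes. Pglym78 differed by -0.27, Gapdh1 by -0.24, Eno by -0.20, Pfk and Pgk by -0.18 each and Gpdh1 by -0.15, so the 7 genes were closer together here than in the comparison with spermless-mated females.

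Spermless-mated and DTA-E-mated females differ in the receipt of main-cell Acps without sperm. The 7 genes were higher in spermless-mated females, where 50.9% of all genes were higher, with a median of 0.21. Gapdh1 differed by 0.46 and Ald1 by 0.44, and both were past 0.322 higher, against 1.60% of all genes, but 0 of 7 were past 1.5-fold, against 0.516% of all genes. Pgk differed by 0.27, Eno by 0.21, Pfk by 0.20 and Pglym78 by 0.19. Gpdh1 differed by 0.03, less than the spread between probe sets of a gene described below, and was at -0.02 in the columns as deposited and -0.03 without the filter.

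The differences from virgin females in the remaining pairs were smaller. After spermless males all 7 genes had values above those of virgin females, where 52.3% of all genes were higher, with a median of 0.13. In the columns as deposited and without the filter the median was 0.08 and Gpdh1 was at -0.05, which left 6 of 7 above virgin females. Gapdh1 at 0.24, Ald1 at 0.17 and Pglym78 at 0.16 led them, and 0 of 7 were past 0.322 or past 1.5-fold, against 1.68% and 0.5% of all genes. After DTA-E males all 7 had values below those of virgin females, where 45.5% of all genes were lower, with a median of -0.14. Ald1 at -0.27 and Gapdh1 at -0.22 led them, and 0 of 7 were past 0.322 or past 1.5-fold, against 1.39% and 0.387% of all genes.

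The only spread that the table allows is that between probe sets of 1 gene. A gene was measured by more than 1 probe set in 294 cases, whose differences had an SD within genes of 0.08 to 0.09 in the 6 pairs, and 36 of the 42 differences of the 7 genes were larger than it. The 6 that were not were Gpdh1 in 3 pairs, Eno in spermless-mated against virgin females, and Pfk and Pglym78 in DTA-E-mated against virgin females. The share of all genes with differences larger than this SD was not counted. The median range over the columns in all 6201 genes, 0.12, was itself larger than the SD. Pools of flies and chips add spread that this SD leaves out. The 6 pairs share their columns, so the 42 differences are not separate results. A low wild-type column or a high spermless column enters 3 pairs at once.

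Other genes of sugar metabolism were read from lists of the pathway. Of 16 other glycolysis genes 5 were compared, and in wild-type-mated against spermless-mated females 4 were lower and 0 were past 1.5-fold, with a median of -0.10. Hex-C (-0.28) and Hex-A (-0.10), the hexokinase genes, and Pgi (-0.22), the phosphoglucose isomerase gene, all differed by less than the 6 genes above other than Gpdh1. Pfrx, which encodes the bifunctional enzyme that makes and breaks down fructose 2,6-bisphosphate, an activator of phosphofructokinase, differed by -0.03.

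Of 11 genes of sugar and glycogen supply, 8 were lower in the same comparison with a median of -0.21. The trehalose transporter gene Tret1-1 differed by -0.61 and was the 1 gene of the list past 1.5-fold. Glyp, the glycogen phosphorylase gene, differed by -0.49, Tps1, the trehalose synthesis gene, by -0.35 and Pgm1, the phosphoglucomutase gene, by -0.31. The 5 genes of the pentose phosphate list had a median of -0.005 and lay between -0.05 and 0.02. All 5 were lower in wild-type-mated than in virgin and DTA-E-mated females, with medians of -0.14 and -0.13. All 5 were also lower in spermless-mated than in virgin females, with a median of -0.10. Of 4 gluconeogenesis genes 2 were lower and 2 higher in wild-type-mated than in spermless-mated females. Pepck1, encoding phosphoenolpyruvate carboxykinase, had 0.81 after wild-type males, 0.59 after spermless males, 0.90 after DTA-E males and 1.19 in virgin females, with the spermless column lowest. The 4 named genes of the glycerol 3-phosphate shuttle list (Gpo2, Gpo3, Gpdh2 and Gpdh3) did not pass the filter.

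Genes downstream of pyruvate were closest to the glycolytic enzyme genes in size. Of 16 genes of pyruvate entry and the TCA cycle, all 16 were lower in wild-type-mated than in spermless-mated females, with a median of -0.38. The 3 past 1.5-fold lower were Idh3g (-0.67) and Idh3a (-0.63), which encode subunits of mitochondrial isocitrate dehydrogenase, and mAcon1 (-0.64), the aconitase gene. SdhB, a succinate dehydrogenase subunit gene, differed by -0.57. The wild-type column was lowest in 15 of the 16 and the spermless column highest in 15 of the 16. In wild-type-mated against virgin females 15 of 16 were lower, none past 1.5-fold, with a median of -0.23, led by SdhB at -0.49.

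**Figure D3:**
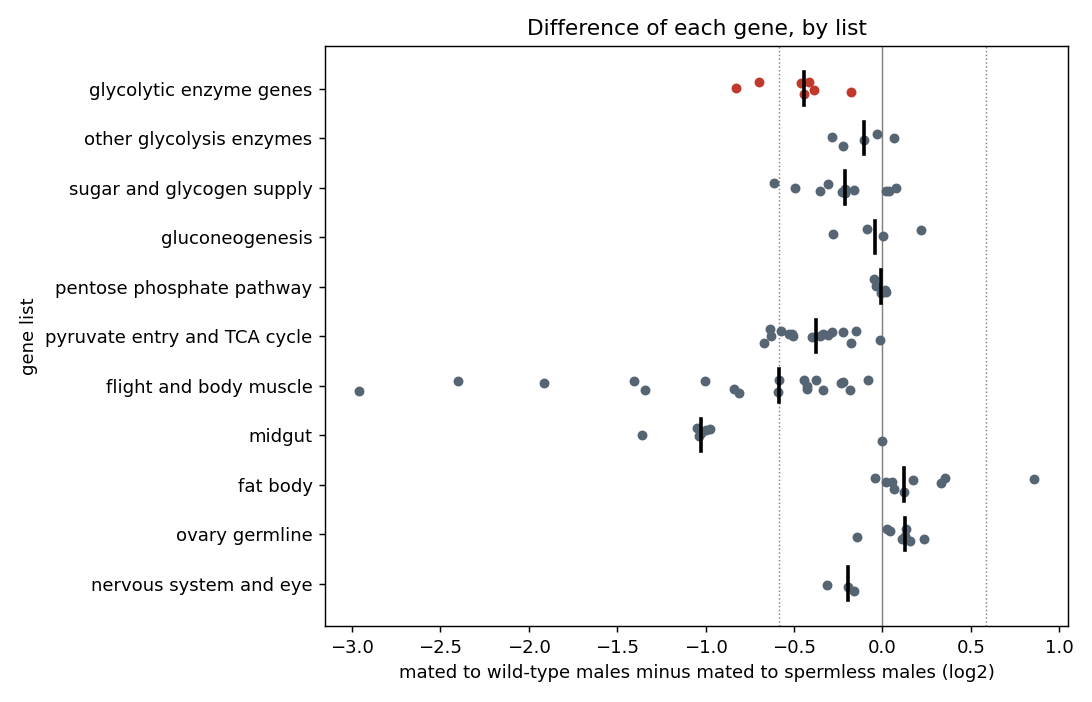
Difference between females mated to wild-type males and females mated to spermless males in log2 units, 1 point per gene and 1 row per list, with the median of each list as a black bar and dotted lines at 1.5-fold. The glycolytic enzyme genes have a median of -0.45, the pyruvate and TCA cycle genes -0.38, the muscle genes -0.59 and the pentose phosphate genes -0.005.

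Tissue markers also differed in these comparisons, and their part in the result for the enzyme genes was not tested. In bulk RNA, fewer cells of a type and less RNA per cell cannot be told apart. All 19 muscle genes compared were lower in wild-type-mated than in spermless-mated females, and 10 were past 1.5-fold; their median was -0.59 and their range from -2.96 to -0.08. Act88F, the flight muscle actin gene, had -0.36 after wild-type males, 2.60 after spermless males, 0.66 after DTA-E males and 1.29 in virgin females, which is the order of the enzyme genes. The flight muscle gene fln differed by -2.40, from a low value of -1.21 after wild-type males, so the size is less certain. TpnC4, the flight muscle troponin C gene, had -1.59 after wild-type males, near the mean of -1.66 of the 23 other foreign controls in that column, so that no size is given for its difference. In all 19 the spermless column was highest, and in 12 the wild-type column was lowest. The gene sls, which differed by -0.08, passed the filter on low values only through its spermless column. Its place among the 19 with a highest spermless column was therefore fixed by the filter.

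In the remaining pairs with wild-type-mated females the muscle list and the enzyme genes were nearer by their means than by their medians. The muscle means are pulled down by the large differences of Act88F, fln and TpnC4. They include TpnC4 although its value after wild-type males was near the controls, so the medians describe most muscle genes better. In wild-type-mated against DTA-E-mated females the 7 enzyme genes had a median of -0.20 and a mean of -0.23, and the 19 muscle genes a median of -0.05 and a mean of -0.21, with 15 lower and 3 past 1.5-fold. In wild-type-mated against virgin females the enzyme genes had a median of -0.32 and a mean of -0.36, and the muscle genes a median of -0.09 and a mean of -0.32. The 3 muscle genes past 1.5-fold lower there were Act88F (-1.65), fln (-1.33, from its low value after wild-type males) and TpnC4, given without a size because it was near the controls. In spermless-mated against virgin females the enzyme genes had a median and a mean of 0.13, and the muscle genes a median of 0.47 and a mean of 0.56, with 7 past 1.5-fold higher.

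Midgut markers were lower in the wild-type-mated column as well. Of 7 genes compared, 6 were past 1.5-fold lower against spermless-mated, DTA-E-mated and virgin females alike, with medians of -1.03, -0.88 and -1.23. They were Mal-A1, alphaTry, betaTry, Jon74E, Bace and Amy-d, all digestive enzyme genes. The seventh, the serine protease gene Jon99Fi, differed by -0.001, -0.18 and 0.63 in the same pairs. The spermless column was highest in only 1 of the 7 midgut genes, so the midgut list as a whole did not have the order of the enzyme genes. That gene, Jon74E, did have it, with 2.22 after wild-type males, 3.14 after DTA-E males, 3.51 in virgin females and 3.58 after spermless males. Fat body and ovary markers did not have the order of the enzyme genes either. In wild-type-mated against spermless-mated females their medians were 0.12 and 0.13. Of the fat body genes 8 of 9 were higher there, and of the ovary germline genes 8 of 9. The female-biased fat body gene fit, at 0.86, was the 1 of them past 1.5-fold. The ovary gene bam, whose 0.13 was the ovary median, passed the filter on low values only through its wild-type column. The filter thus favoured a higher wild-type value in bam. The 3 nervous system and eye genes compared had a median of -0.19, the value of trp. The filter on low values kept trp only through its spermless column, which fixed that column as its highest. In all 3 the wild-type column was lowest and the spermless column highest, but the DTA-E column was above the virgin column, unlike the enzyme genes.

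**Figure D4:**
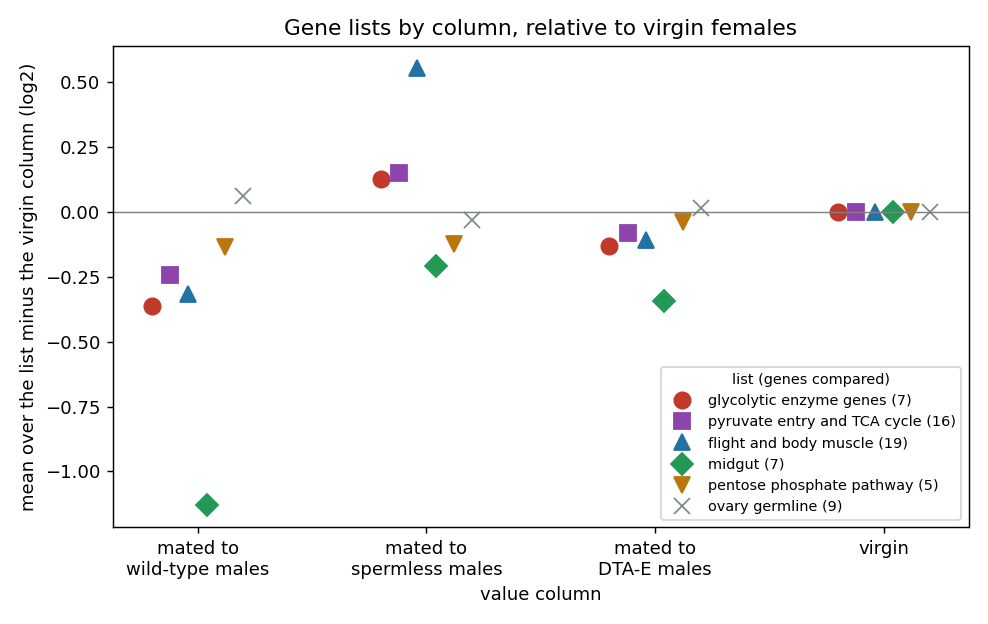
Mean over each gene list in each value column minus its mean in the virgin column, in log2 units, with the number of genes in the legend and no replicates. The glycolytic enzyme genes lie at -0.36 after wild-type males, 0.13 after spermless males and -0.13 after DTA-E males, the midgut genes at -1.13, -0.21 and -0.34, and the muscle genes at -0.32, 0.56 and -0.11, in the same order of columns. The muscle means include the large differences of Act88F, fln and TpnC4, the last near the control level after wild-type males.

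Likeness was measured as the root mean square distance over the 4 columns after the mean of each gene was taken off. Among 840 other genes with at least 0.5 times the range of the median profile of the 7 genes, the 6 nearest were CG9485, ND-75, thetaTry, Jon25Biii, CG10472 and ND-B17, at distances of 0.007 to 0.02 log2 units. ND-75 and ND-B17 encode subunits of respiratory complex I, and thetaTry and Jon25Biii encode digestive serine proteases. For Ald1 the 4 nearest of 266 genes were the lysozyme gene LysB, at 0.07, and Idh3g, Cyt-c1 and ND-ASHI, at 0.08 to 0.09.

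The mean of 9 hybridization controls was 1.06 after wild-type males, 0.99 after spermless males, 0.82 after DTA-E males and 0.90 in virgin females. It was highest in the wild-type column, where the enzyme genes were lowest, and next highest in the spermless column, where they were highest. The 3′ minus 5′ difference of the GAPDH controls, a sign of RNA integrity, was 1.84 after wild-type males, 1.93 after spermless males, 1.97 after DTA-E males and 1.79 in virgin females. That of the actin controls was 1.97 after wild-type males, 2.02 after spermless males, 2.26 after DTA-E males and 1.95 in virgin females, and that of the eIF-4a controls was 1.78, 1.80, 1.97 and 1.70 in the same order of columns. All 3 were highest in the DTA-E column and lowest in the virgin column. Their part in the differences of DTA-E-mated females was not tested. The 4 columns correlated at 0.993 to 0.996 across probe sets, and the number of arrays limits the precision.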

How the data were processed

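Per the labels' protocols, 20 µg of labelled cRNA was hybridised for 16 h at 45 °C to Affymetrix Drosophila GeneChips. The sources used here do not say how 4 chips became 1 column. The deposited values are log values of unstated base, read as log2, with column means near 0. Genes were named from the platform annotation and, by Entrez identifier, updated to RefSeq symbols (Release 6), which held 12393 of 12442 identifiers. Left out were 44 controls, 326 probe sets naming more than 1 gene and 1197 naming no gene.

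Kept were 6534 probe sets, those whose highest column reached the median of all values (-0.18). The median over these was then subtracted from each column, a shift of 0.05 or less relative to virgin females, and averaging over probe sets gave 6201 genes. With 1 column per group no test was made. The naming rule covered the 10 enzyme genes, in each of 11 other lists the genes past 1.5-fold or else up to 4 with the largest differences, and the nearest profiles. The enzyme genes, lists and thresholds were chosen with earlier results of these data known. The calculation was tested on simulated data.

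Alternatives were columns as deposited, quantile normalization, lowess removal of an intensity trend (fraction 0.3, 3 iterations), no filter, a filter at the 75th percentile (0.51), the brightest probe set of a gene, the shared Tpi probe set added, a lower and a 2-fold threshold and, chosen after seeing the data, natural logs. Software was matplotlib 3.10.9, statsmodels 0.14.6, pandas 2.3.3 and numpy 2.4.6 under Python 3.11.15.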

Additional observations from a re-analysis of the deposited data

How the results depend on the processing

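Over the 7 alternative values of each of the 6 medians, every median kept its sign. The median in wild-type-mated against spermless-mated females was -0.35 after quantile normalization, the 1 median that moved by more than the SD between probe sets, and the medians otherwise lay between -0.46 and -0.42 there. Counts past the threshold depended on the threshold. The share of all genes under the same setting is given in brackets. In wild-type-mated against spermless-mated females 2 genes were past 1.5-fold lower (1.10%) and 6 past the lower threshold of 0.322 (3.82%). The count there was 0 at 2-fold (0.355%), 5 with the values read as natural logs (2.55%) and 1 after quantile normalization (0.871%). In wild-type-mated against virgin females the count of 1 (1.0%) became 3 at the lower threshold (2.76%) and 0 at 2-fold (0.419%). It became 2 with natural logs (1.85%) and 0 after quantile normalization (0.887%). In spermless-mated against DTA-E-mated females the count of 0 (0.516%) became 2 at the lower threshold (1.60%) and 2 with natural logs (0.984%). In wild-type-mated against DTA-E-mated females 0 (0.387%) became 1 at the lower threshold (1.13%). On the natural log reading Ald1 would be 2.28-fold and Gapdh1 2.00-fold lower in wild-type-mated than in spermless-mated females. Of 294 values of single genes under an alternative, 4 changed sign, all of Gpdh1 and all under 0.05 in size; 10 moved by more than the SD between probe sets, all under quantile normalization. The cause was not tested. Under the filter at the 75th percentile, 2.05% of 3269 genes were past 1.5-fold lower in wild-type-mated against spermless-mated females, beside 2 of 7 enzyme genes. Leaving out a replicate was not possible with 1 column per group. No paired analysis was possible because each group has 1 column.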

Other observations

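Of the 13 other glycolysis genes with a probe set, 8 did not pass the filter on low values, among them Pglym87, a further phosphoglycerate mutase gene, and the hexokinase gene Hex-t2. CG2964, which passed, differed by 0.06 in wild-type-mated against spermless-mated females, opposite in sign to the 7 enzyme genes with a probe set of their own.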
